A study of Homo sapiens with 8 samples.

Results

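Gene expression was measured by RNA sequencing in CCD-1077Sk, an established line of human skin fibroblasts, 6 h after the cells received transforming growth factor beta 1 (TGFB1), celastrol, both or neither. The design asked how celastrol alters the transcriptional response to TGFB1, and the interaction of the agents answers it gene by gene. The 4 groups, of 2 libraries each, were control cells given BSA, citric acid and DMSO, cells given TGFB1 and DMSO, cells given BSA, citric acid and celastrol at 500 nM, and cells given TGFB1 with celastrol at 500 nM, called combined libraries below. The labels name BSA and citric acid only for the groups without TGFB1. All were grown to subconfluence in the same serum-containing medium and came from this single line, labelled normal skin. No TGFB1 dose was found in the labels. Nothing in them states that replicate libraries were separate cultures; p-values therefore measure only the spread between libraries and this spread may be technical. The genes described are the 14739, of 24598 in the deposited table, with a mean of at least 50 normalized reads over the 8 libraries. The closest gene inside that limit had a mean of 50.03 and the closest outside it 49.98.

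TGFB1 is the main cytokine that turns resting skin fibroblasts into matrix-producing, contractile cells. It binds a pair of receptor kinases that phosphorylate SMAD2 and SMAD3; these enter the nucleus with SMAD4 and switch on target genes, among them inhibitors of the pathway itself such as SMAD7 and SKIL. It also activates MAP kinases and, in a second wave, cytokines such as IL11 that keep the fibroblast response going. Celastrol is a triterpenoid from thunder god vine, known to induce the heat shock response, a set of chaperones that refold damaged proteins.

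The interaction was (combined minus TGFB1) minus (celastrol minus control) on log2(value + 1), where a value is the deposited normalized read number of a gene. It equals the TGFB1 difference in the presence of celastrol minus the TGFB1 difference in its absence. It is 0 where TGFB1 multiplied a level by the same factor with and without celastrol, which is called additive here because factors add on a log scale. A gene was called where the limma test, fitted to all 22866 genes with enough reads and adjusted by the Benjamini-Hochberg method, gave an adjusted p under 0.05. Log2 values are differences between groups, and other values are levels in normalized reads, which are not scaled by gene length and so are not compared between genes.

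The libraries held 20716620 to 42518095 estimated reads. The fibroblast markers, 11 of 11 measured, summed to between 386650 and 679910 normalized reads per library, with the highest sums in the TGFB1 libraries. The deposited table had no row for the keratinocyte genes KRT5, KRT14 and KRT1 or the endothelial genes CDH5 and CLDN5. It also had none for the melanocyte genes TYR and DCT or the immune genes CD3E and MS4A1, so these markers were not analysed here. Over all libraries the remaining keratinocyte markers, 3 of 6, summed to 880.5 to 1072 and the remaining immune markers, 3 of 5, to 245.1 to 516.3. The smooth muscle markers, 4 of 4, summed to 523.1 to 1392. The remaining melanocyte markers, 3 of 5, summed to 1034 to 1074 in control, 222.5 to 235.9 with TGFB1, 1313 to 1365 with celastrol and 1270 to 1312 in combined libraries. The endothelial markers, 3 of 5, summed to 18.3 to 32.5 without celastrol and 269.6 to 356.9 with it; the part of other cell types in the results was not tested. Over the 14739 genes, Pearson's r of log2 values was 0.993 to 0.996 between celastrol and combined libraries, beside 0.993 between the celastrol libraries and 0.994 between the combined ones, and 0.970 to 0.972 between control and TGFB1 libraries. The combined libraries were thus as like the celastrol libraries as replicates were like each other. Only their labels show that they received TGFB1, since the added protein leaves no transcript to check, and every interaction below rests on those labels.

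The interaction was called for 2345 genes, of which 1503 (10.2% of those described) were lower than additive and 842 (5.71%) higher. Of the 1503, TGFB1 alone had raised 1485 and lowered 0, with 18 not called for TGFB1; of the 842, it had lowered 835 and raised 0, with 7 not called. In every gene with both calls the interaction thus ran against the TGFB1 change, and no TGFB1 change was called as amplified; the interaction contains the TGFB1 difference with its sign turned, so the calls are not independent of each other. A size of at least 1 on the log2 scale was reached by 378 of the lower genes (2.56% of all described) and 339 of the higher (2.3%). The choice of scale mattered little for the sign of most genes. On the linear scale 1494 of the 1503 were lower than the sum of the separate differences, and 830 of the 842 higher. FOSB and EGR3, described below, were called lower but lay above that sum. The scaling of libraries mattered more. Lower genes made up 64.1% of the calls with the deposited scaling, 25.3% with a common total (739 lower and 2185 higher), which shifted the median interaction of all tested genes by 0.22, and 76.5% with median centring (2217 and 680). All 842 higher calls were also made with a common total and all 1503 lower calls with median centring.

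Read from the side of TGFB1, little of its response was measurable in celastrol. The combined libraries were compared with the celastrol libraries, a contrast that shares no library with TGFB1 against control. TGFB1 alone was called for 2704 genes upward (18.3%) and 1842 downward (12.5%), whereas in celastrol it was called for 1 gene (0.00678%), FOSB, upward, and 0 genes downward (0%). The adjustment ran within each comparison, so these counts rest on unlike limits of the unadjusted p. In the limma fit an unadjusted p of 0.0106 (HSPA6) passed without celastrol, while 4.1e-05 (JUNB) did not pass in celastrol. In celastrol 580 genes (3.94%) had an unadjusted p under 0.05 in the limma fit, 305 higher (2.07%) and 275 lower (1.87%). This share of genes is below the 0.05 that such a threshold would pass on average if no gene differed. The SD over genes of the TGFB1 difference was 0.57 without celastrol and 0.16 with it, beside a median standard error of 0.11. TGFB1 differences of at least 1 in size, called or not, were seen for 1031 genes without celastrol and 17 with it. The call of FOSB, at an adjusted p of 0.0499, was lost without each of the 8 libraries in turn (adjusted p = 0.129 to 1).

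**Figure D1:**
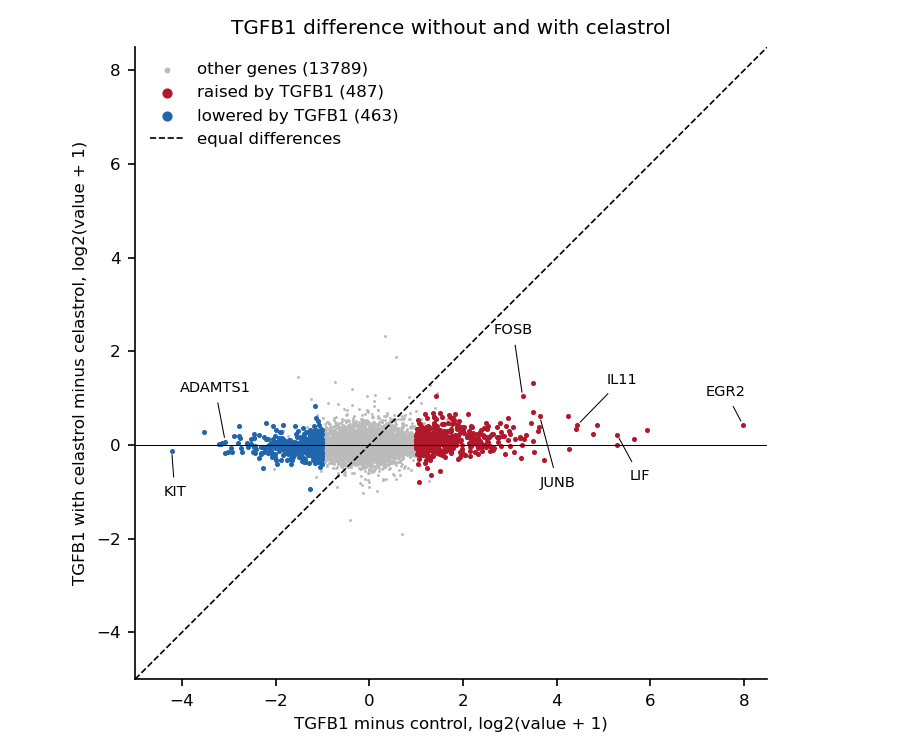
The TGFB1 difference in log2(value + 1) without celastrol (horizontal axis) and with celastrol (vertical axis), 1 point per gene, for the 14739 genes. Points on the dashed line would have equal differences; the 487 genes raised at least 2-fold by TGFB1 (red) and the 463 lowered (blue) instead lie along 0 on the vertical axis, with FOSB, at 1.04, among the few that lie higher.

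A small remainder of the response kept its sign. TGFB1 raised 487 genes (3.3%) and lowered 463 (3.14%) by at least 1 on the log2 scale. Of the 487 raised genes, 352 (72.3%) were also above celastrol in the combined libraries, beside 47.7% of all genes, and in 181 (37.2%) both combined libraries lay above both celastrol libraries, beside 15.6% of all genes. The size was small: their median TGFB1 difference was 1.43 without celastrol and 0.10 with it, and the median gene kept 6.06% of its log2 difference. Over 15 other settings and left-out libraries the share above celastrol ranged from 64% to 77.3%, both extremes being reached by leaving out 1 combined library. Of the 463 lowered genes, 258 (55.7%) were below celastrol, beside 52.3% of all genes; both libraries lay below in 81 (17.5%), beside 18%. Their median difference was -1.35 without celastrol and -0.02 with it. The shares of lowered genes were thus near those of all genes, and the shares of raised genes above them.

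The 10 raised genes with the smallest p for a remaining TGFB1 difference, picked here after their values were seen, included early targets of the pathway. FOSB, an AP-1 subunit, was at 17.5 and 16.8 in control, 181 and 168 with TGFB1, 3723 and 3381 in celastrol and 6838 and 7776 in combined libraries. JUNB, another AP-1 subunit, was at 258 and 250.1 in control, 3138 and 3207 with TGFB1, 2762 and 2846 in celastrol and 3969 and 4677 in combined libraries. In both genes each combined library lay above each celastrol library. NEDD9, a scaffold of focal adhesions, was at 2330 and 2391 in control, 9348 and 9392 with TGFB1, 3520 and 3547 in celastrol and 4696 and 4574 in combined libraries. PMEPA1, a membrane protein that takes SMADs away from the receptor, was at 225 and 234 in control, 4397 and 4364 with TGFB1, 453 and 425 in celastrol and 744 and 607 in combined libraries. SKIL, a nuclear co-repressor of SMADs, was at 4108 and 3834 in control, 12641 and 10682 with TGFB1, 9328 and 8829.5 in celastrol and 12534 and 12089 in combined libraries. In all 5 genes the combined libraries lay above the celastrol libraries without overlap, by log2 differences of 1.04 (SE 0.10), 0.62 (SE 0.08), 0.39 (SE 0.05), 0.61 (SE 0.10) and 0.44 (SE 0.08), each smaller than the difference TGFB1 made alone. Only that of FOSB passed the adjusted threshold in the limma fit; the others had adjusted p-values of 0.232, 0.232, 0.457 and 0.642. Of these 5, FOSB was also the gene whose TGFB1 libraries lay far below its celastrol libraries.

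The 950 genes that TGFB1 changed by at least 1 were sorted by what celastrol alone did against control. A change was mimicked where celastrol was called in the same direction with a size of at least 0.5, opposed where it was called with that size in the other direction, and left otherwise. TGFB1 against control and celastrol against control share the control libraries, so the classes are descriptions. Of the 487 raised genes, 261 (53.6%) were mimicked, 192 (39.4%) left and 34 (6.98%) opposed, where 18.8% of all genes were raised by celastrol alone and 13.4% lowered by that size. Of the 463 lowered genes, 42 (9.07%) were mimicked, 204 (44.1%) left and 217 (46.9%) opposed. So raised genes were more often mimicked than opposed and lowered genes more often opposed than mimicked. In both directions celastrol alone more often raised than lowered the gene. The minimum mean for described genes was taken over all libraries, including those with celastrol. A gene whose mean in the libraries without celastrol lay under that limit was described only if its mean with celastrol lay above it. This favours genes raised by celastrol, and its share in these counts was not tested. With a pseudocount of 10, 226 raised genes were mimicked and 35 opposed, and 39 lowered genes were mimicked and 138 opposed. With a common total the raised genes that were left numbered 100, the lowered genes that were left 346 and those mimicked 106. Left does not mean unchanged. With the deposited scaling celastrol alone was called, at a size under 0.5, in 57 of the 192 raised and 33 of the 204 lowered left genes.

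**Figure D2:**
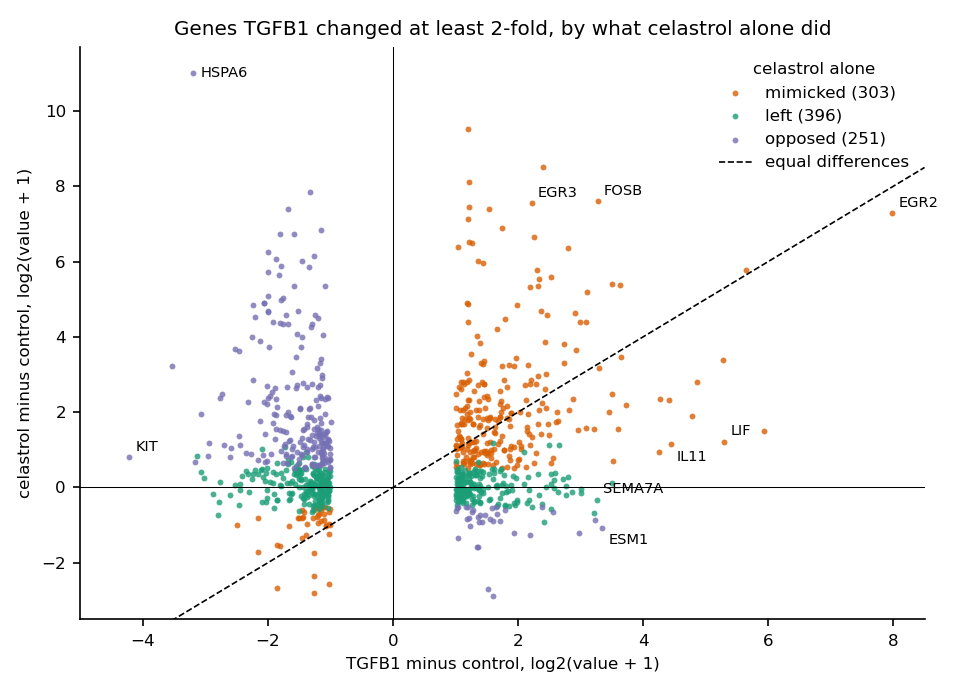
Log2 differences from control for TGFB1 (horizontal axis) and celastrol (vertical axis) in the 950 genes that TGFB1 changed at least 2-fold, coloured by class: 303 mimicked, 396 left and 251 opposed. Mimicked genes raised by TGFB1 spread from just above 0 to values far above the line of equal differences, where FOSB and EGR3 lie, while LIF and IL11 lie well below it.

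The classes differed in what adding celastrol to TGFB1 did to the level; these counts share the TGFB1 libraries with the sorting and are descriptions. In the 192 raised genes that celastrol left, the combined libraries were called below the TGFB1 libraries in 184 and above in 0, with a median of -1.29, beside 35.8% of all genes called below and 27.4% above. In the 34 opposed genes they were below in 34, with a median of -2.32. In the 261 mimicked genes they were below in 76, above in 117 and not called in 68, with a median of 0.22. Lowered genes that were left or opposed showed the mirror image: above in 199 of the 204 and 217 of the 217, with medians of 1.45 and 3.26. In the 42 lowered mimicked genes the combined libraries were above in 21, below in 5 and not called in 16, with a median of 0.46. The interaction was alike in size across classes. Its medians were -1.46, -1.27 and -1.41 for mimicked, left and opposed raised genes and 1.27, 1.37 and 1.41 for lowered genes. This likeness follows from the sorting, as each class was chosen by a TGFB1 change of at least 1 and little of it remained in celastrol. The median TGFB1 difference in celastrol was -0.04 to 0.14 across the classes. The interaction was called in 403 of the 487 raised and 325 of the 463 lowered genes. Since the interaction holds the TGFB1 difference that chose these genes, these counts are given without a test.

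**Figure D3:**
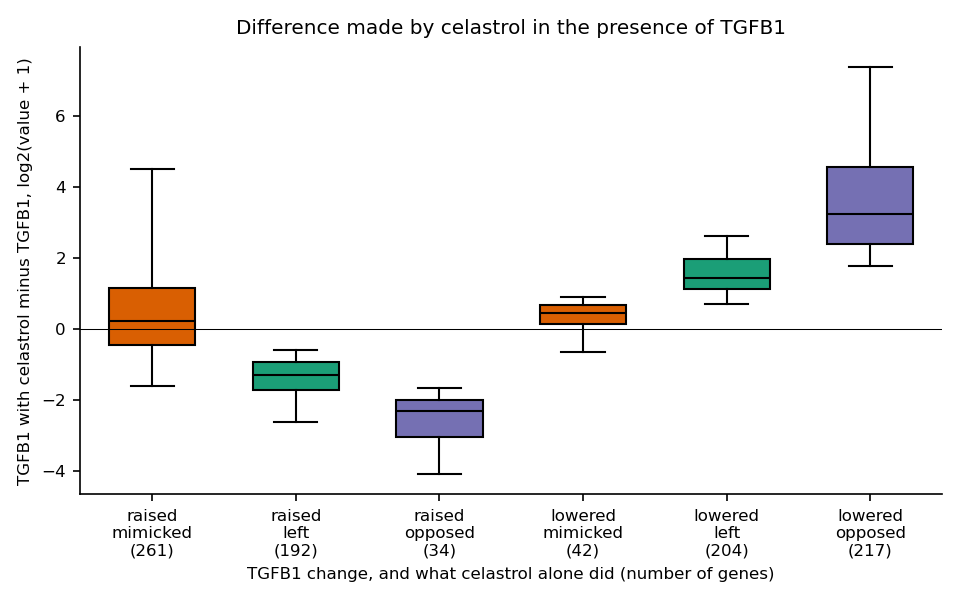
Log2 difference between combined and TGFB1 libraries for the genes of each class; the line in each box is the median, the box spans the middle 50% of genes and the whiskers the 5th to 95th percentiles. Raised mimicked genes lie on both sides of 0, with a median of 0.22, and lowered mimicked genes have a median of 0.46. Left and opposed genes lie on the side opposite to the TGFB1 change.

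Among mimicked genes, 1 set reached a like level with TGFB1, with celastrol and with both, so that celastrol changed it strongly by itself yet changed little on top of TGFB1. EGR2, a zinc finger transcription factor of the immediate early class and the gene with the interaction of largest size, was at 17.5 and 10.8 in control, 3805 and 3646 with TGFB1, 2317 and 2320.4 in celastrol and 2931 and 3346 in combined libraries. All 6 treated libraries lay far above the control libraries. Its TGFB1 difference was 7.98 alone and 0.43 in celastrol, an interaction of -7.54 (SE 0.25, adjusted p = 4.17e-06). ANGPTL4, a secreted inhibitor of lipoprotein lipase, was at 7.5 and 2.4 in control, 244 and 294 with TGFB1, 284 and 299 in celastrol and 353 and 292 in combined libraries. The treated groups of ANGPTL4 overlapped, and its interaction was -5.51 (SE 0.52, adjusted p = 0.000429). Others with this pattern were IER3, an early response gene, at an interaction of -2.06 (SE 0.12, adjusted p = 3.53e-05), INHBA, the activin A subunit and itself a ligand of the TGFB family, at -2.27 (SE 0.12, adjusted p = 2.86e-05), and SPRY4, an inhibitor of MAP kinase signalling, at -1.67 (SE 0.18, adjusted p = 0.000761). JUNB, with an interaction of -3.02 (SE 0.11, adjusted p = 6.26e-06), was also raised by each agent alone. Its combined libraries were however called above its TGFB1 libraries, by 0.44 (SE 0.08, adjusted p = 0.00129).

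SKIL also belongs to the set with like levels in the treated groups. Its promoter and those of 3 genes of other patterns are shown so that the stretch before each start can be read beside the values: SKIL for a gene raised by each agent, IL11 for one raised strongly by TGFB1 and weakly by celastrol, CCN2 for one celastrol left, and SMAD6 for one lowered by TGFB1. Each line gives the 120 bases before the start of the first listed RefSeq transcript (build GRCh38.p14), with capitals for the motifs searched: AP-1 (TGANTCA), the cAMP response element or CRE (TGACGTCA), the SMAD palindrome (GTCTAGAC) and a heat shock pair (GAANNTTC). Both strands were searched; no overlap between motifs occurred in these 4.
SKIL, chr3:170357595-170357714, plus strand: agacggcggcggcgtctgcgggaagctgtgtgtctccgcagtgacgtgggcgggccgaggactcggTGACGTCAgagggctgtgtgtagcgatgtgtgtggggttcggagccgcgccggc
IL11, chr19:55370464-55370583, minus strand: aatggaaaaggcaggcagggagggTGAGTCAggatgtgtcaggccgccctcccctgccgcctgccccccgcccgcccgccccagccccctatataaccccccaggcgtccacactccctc
CCN2, chr6:131951373-131951492, minus strand: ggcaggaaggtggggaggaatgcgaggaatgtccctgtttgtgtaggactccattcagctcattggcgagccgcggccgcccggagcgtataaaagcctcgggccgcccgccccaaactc
SMAD6, chr15:66702116-66702235, plus strand: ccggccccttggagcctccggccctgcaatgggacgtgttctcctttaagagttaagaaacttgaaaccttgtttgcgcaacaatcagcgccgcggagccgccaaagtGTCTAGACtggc
The CRE of SKIL starts 54 bases before the start site, the AP-1 match of IL11 96 bases and the SMAD palindrome of SMAD6 12 bases before it, and no match was found in this window of CCN2. Of 27305 promoters, 1.39% held a CRE in such a window, 3.31% an AP-1 match, 0.0732% the SMAD palindrome and 2.59% the heat shock pair. These matches are descriptions of letters, not sites of binding. No rule was set for picking these 4 genes, so their matches do not stand for other genes of their patterns. Promoters were found for 70.0% of the 14739 genes, too few for a comparison between classes.

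A second set of mimicked genes was raised more by celastrol than by TGFB1, and there adding celastrol to TGFB1 raised the level further while the TGFB1 difference still shrank. EGR3, a relative of EGR2, was at 25 and 18 in control, 109 and 95.9 with TGFB1, 4418 and 3974 in celastrol and 4704 and 4999.6 in combined libraries. Its combined libraries were near its celastrol libraries and far above its TGFB1 libraries, and its interaction was -2.0 (SE 0.21, adjusted p = 0.000699). FOSB, given above, had an interaction of -2.23 (SE 0.14, adjusted p = 4.71e-05). On the linear scale EGR3 and FOSB instead lay above the sum of the separate differences, by 575 and 3597 normalized reads. SMAD7, the inhibitory SMAD that blocks the TGFB receptor, was at 1234 and 847 in control, 3439 and 3257 with TGFB1, 3702 and 3832 in celastrol and 6031 and 5699.6 in combined libraries. The combined libraries of SMAD7 were the highest of all 8, but by less than additive: its interaction was -1.07 (SE 0.20, adjusted p = 0.0122). That call was lost without either celastrol or either combined library (adjusted p = 0.0575, 0.0728, 0.0612 and 0.0834). The transcription factors KLF10, BHLHE40 and SNAI1, early targets of TGFB1, had interactions of -1.75 (SE 0.15, adjusted p = 0.000279), -2.52 (SE 0.10, adjusted p = 6.88e-06) and -1.63 (SE 0.29, adjusted p = 0.00915), with combined libraries above TGFB1 libraries by 1.49, 1.14 and 1.80. The call of SNAI1 was lost without celastrol replicate 1 (adjusted p = 0.0568) and without either combined library (0.0588 and 0.0665). GADD45B, a stress-induced regulator of MAP kinases, had an interaction of -1.81 (SE 0.15, adjusted p = 0.000247), and ERRFI1, a feedback inhibitor of the EGF receptor, of -1.62 (SE 0.14, adjusted p = 0.000268).

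Another set was raised more by TGFB1 than by celastrol, and its combined level was nearer to that of celastrol than to that of TGFB1. LIF, a cytokine of the IL6 family, was at 266 and 259.7 in control, 9226 and 11612 with TGFB1, 599.8 and 625 in celastrol and 717 and 709.8 in combined libraries. IL11, another cytokine of that family with a known role in fibrosis (chromosome 19, 55364382 to 55370463), was at 334 and 302 in control, 6503 and 7363 with TGFB1, 672 and 735 in celastrol and 995 and 893 in combined libraries. For both genes the TGFB1 libraries were far above all others, and the combined libraries lay between control and TGFB1. The interactions were -5.07 (SE 0.14, adjusted p = 4.17e-06) and -4.02 (SE 0.13, adjusted p = 4.17e-06), among the 12 lowest of those the naming rule allows. HBEGF, a ligand of the EGF receptor, had -4.06 (SE 0.17, adjusted p = 1.14e-05). PMEPA1 had -3.63 (SE 0.14, adjusted p = 6.88e-06), PTGS2, the inducible prostaglandin synthase, -2.54 (SE 0.13, adjusted p = 2.01e-05), and IL6 -2.26 (SE 0.21, adjusted p = 0.000392). COMP, a cartilage matrix protein that rises in fibrotic skin, was at 17.5 and 6.6 in control, 766 and 687 with TGFB1, 24 and 43.6 in celastrol and 60.3 and 27.5 in combined libraries. Its interaction was -5.61 (SE 0.71, adjusted p = 0.00172), with the spread between replicates at low levels giving the large error. LIF shares exon bases with LIF-AS1, ANGPTL4 with RAB11B-AS1, JUNB with HOOK2, PMEPA1 with NKILA and IL6 with STEAP1B in GENCODE release 29, and reads from such shared bases cannot be assigned with certainty.

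**Figure D4:**
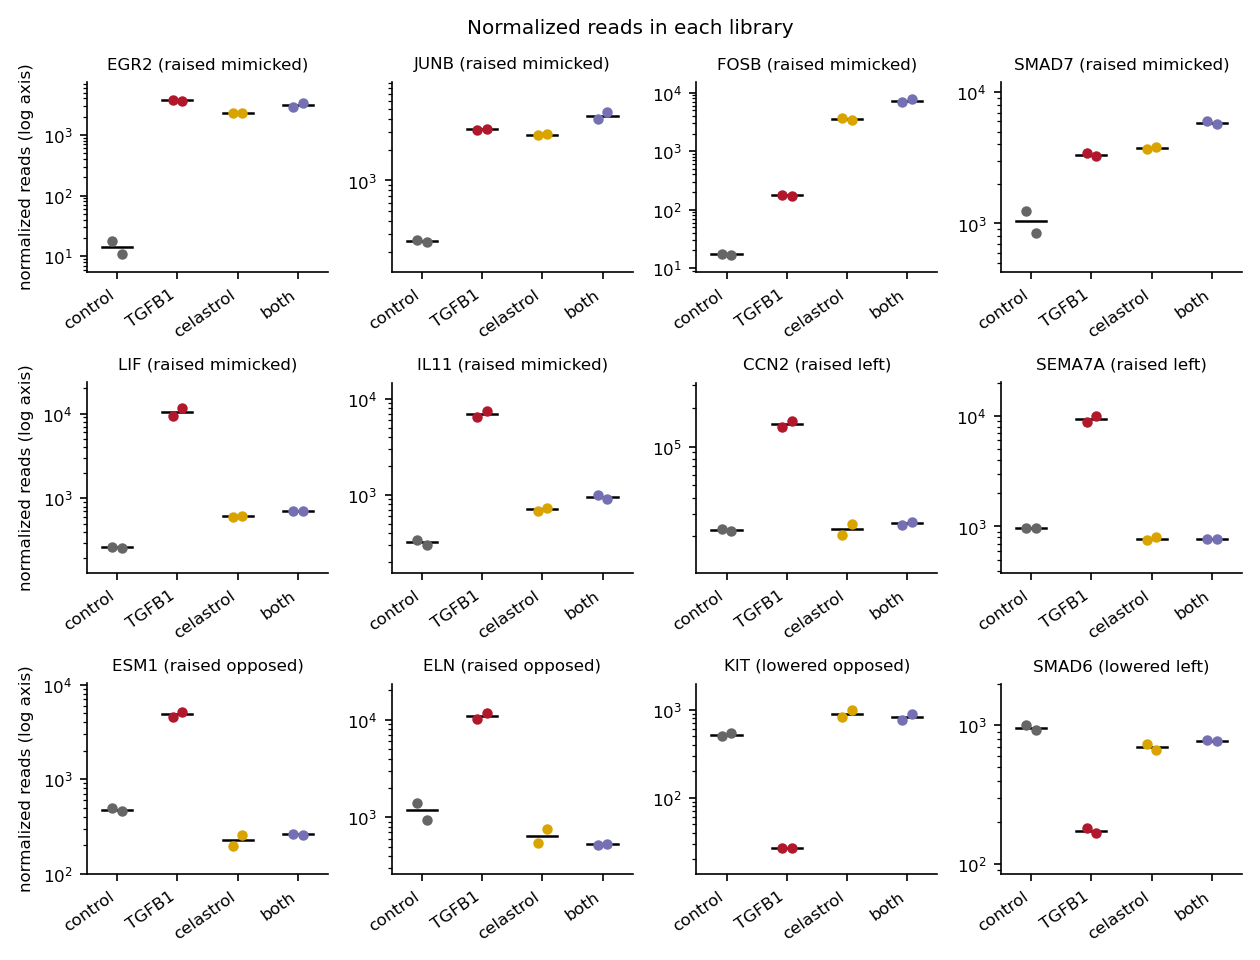
Normalized reads (log axis) of 12 genes in each of the 8 libraries; points are libraries and bars the mean of each group of 2. In EGR2 and JUNB all treated groups lie far above control, and in JUNB the combined group lies highest. In FOSB the celastrol groups lie above TGFB1. The TGFB1 group lies above all others in LIF, IL11, CCN2, SEMA7A, ESM1 and ELN, and below them in KIT and SMAD6.

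Among the 192 raised genes that celastrol alone left were CCN2, NOX4 and several matrix genes. CCN2, which encodes connective tissue growth factor (chromosome 6, 131948176 to 131951372), was at 22618 and 21793 in control, 143120 and 157850 with TGFB1, 20523 and 24924 in celastrol and 24485 and 26064 in combined libraries. SEMA7A, a membrane-anchored semaphorin, was at 978 and 971 in control, 8737 and 10003 with TGFB1, 752 and 804 in celastrol and 773 and 770.4 in combined libraries. In both genes the TGFB1 libraries stood apart and the other 6 lay close together. Interactions were -2.60 (SE 0.14, adjusted p = 2.75e-05) and -3.27 (SE 0.11, adjusted p = 4.17e-06), and the TGFB1 difference of SEMA7A in celastrol was -0.01 (SE 0.08). XYLT1, which starts glycosaminoglycan chains on proteoglycans, had an interaction of -2.60 (SE 0.15, adjusted p = 3.53e-05). Of the matrix genes in this class, COL7A1, the anchoring fibril collagen, had -1.68 (SE 0.14, adjusted p = 0.000223), COL4A1, a basement membrane collagen, -1.99 (SE 0.21, adjusted p = 0.000778), and FN1, fibronectin, -1.36 (SE 0.17, adjusted p = 0.0016). NOX4, an oxidase induced in myofibroblasts, had -2.37 (SE 0.40, adjusted p = 0.00657), a call lost without combined replicate 2 (adjusted p = 0.0534). KANK4, which had the largest TGFB1 rise in the class among genes the naming rule allows (3.49), did not pass, with -2.18 (SE 0.86, adjusted p = 0.152) and control levels of 27.5 and 5.4; when control replicate 1 was left out it passed (-3.26, adjusted p = 0.00882). CCN2 shares exon bases with a gene of clone name.

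The 34 opposed genes fell below control with celastrol, by a median of -0.83, and with both agents their median difference from control was -0.72. ESM1, a secreted proteoglycan, was at 493 and 459 in control, 4586 and 5128 with TGFB1, 196 and 259 in celastrol and 266 and 258 in combined libraries. ELN, which encodes elastin (chromosome 7, 74027789 to 74069907), was at 1413 and 948 in control, 10144 and 11754 with TGFB1, 543 and 753 in celastrol and 519 and 538 in combined libraries. In ESM1 and ELN both celastrol and both combined libraries lay below both control libraries. Interactions were -3.13 (SE 0.18, adjusted p = 3.71e-05) and -3.51 (SE 0.28, adjusted p = 0.000192). IFNE, an interferon of epithelia, had -2.87 (SE 0.23, adjusted p = 0.000214), PODXL, an anti-adhesive sialomucin, -2.39 (SE 0.30, adjusted p = 0.0016), TPM1, a tropomyosin of stress fibres, -1.18 (SE 0.11, adjusted p = 0.00036), and CCL2, a monocyte chemokine, -1.44 (SE 0.19, adjusted p = 0.00195). ELN shares exon bases with ELN-AS1, and ESM1 and TPM1 with genes of clone names.

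With both agents the 463 lowered genes ended at a median of 0.52 above control on the log2 scale, and the 487 raised genes at 0.84 above it. With celastrol alone these medians were already 0.52 and 0.67. The minimum mean over all libraries favours genes raised by celastrol here too. KIT, a receptor tyrosine kinase (chromosome 4, 54657918 to 54740715), was at 499 and 541 in control, 26.8 and 27 with TGFB1, 818 and 993 in celastrol and 765 and 900.2 in combined libraries. TGFBR3, the co-receptor betaglycan, was at 1088 and 1293 in control, 294 and 291 with TGFB1, 1908 and 1973 in celastrol and 1884 and 2019 in combined libraries. Both are of the opposed class: the TGFB1 libraries were lowest and the 4 celastrol-treated libraries highest. Interactions were 4.10 (SE 0.18, adjusted p = 1.41e-05), the highest of those the naming rule allows, and 2.02 (SE 0.13, adjusted p = 5.21e-05). ARHGAP28, a GTPase-activating protein, had 3.19 (SE 0.13, adjusted p = 6.88e-06), and STC2, a secreted glycoprotein induced by stress, 1.38 (SE 0.13, adjusted p = 0.000429). ADAMTS1, a protease of matrix proteoglycans, was at 12675 and 11572 in control, 1398 and 1471 with TGFB1, 15842 and 16324 in celastrol and 15828 and 18076 in combined libraries. SMAD6, the inhibitory SMAD that acts mainly on bone morphogenetic protein signals, was at 1000.5 and 928 in control, 181 and 168 with TGFB1, 729.7 and 665 in celastrol and 782 and 770.4 in combined libraries. Both belong to the genes celastrol left, SMAD6 because its fall with celastrol was -0.47; interactions were 3.15 (SE 0.11, adjusted p = 4.38e-06) and 2.61 (SE 0.12, adjusted p = 1.57e-05). PTX3, a soluble pattern receptor, had 2.84 (SE 0.41, adjusted p = 0.00305), and KCNN2, a potassium channel, 3.07 (SE 0.22, adjusted p = 0.000104).

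In the 42 mimicked falls the median TGFB1 difference was -1.25 alone and 0.01 in celastrol, where 0 were called. ID1, a target of SMAD1 and SMAD5 that blocks differentiation factors, was at 2488 and 2155 in control, 1136 and 922 with TGFB1, 1556 and 1299.5 in celastrol and 1345 and 1519 in combined libraries. Its TGFB1 difference was -1.18 alone and 0.01 (SE 0.13) in celastrol, an interaction of 1.18 (SE 0.18, adjusted p = 0.00441), a call that did not pass without a variance trend (adjusted p = 0.05045). HOXA13, a positional factor of distal skin, had 2.29 (SE 0.17, adjusted p = 0.000149). ATOH8, a helix-loop-helix factor, had 2.34 (SE 0.38, adjusted p = 0.00582), a call lost without combined replicate 1 (adjusted p = 0.0501). PTX3 shares exon bases with VEPH1 and HOXA13 with HOTTIP.

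Lists of genes were described by their counts of called interactions, beside the 10.2% lower and 5.71% higher of all 14739 genes. The median interaction of all genes was -0.04, and with a common total 739 were lower and 2185 higher. The interaction contains the TGFB1 difference with its sign turned, so list counts are not independent of how many members TGFB1 changed. TGFB1 alone was called upward in 16 of 36 pathway, 25 of 33 early response and 30 of 45 matrix genes. It was called upward in 15 of 24 proteases and inhibitors and 17 of 30 contractile genes. Downward calls numbered 5, 5, 0, 3 and 0. The shares of all genes were 18.3% upward and 12.5% downward. Of 36 ligands, receptors and SMADs of the TGFB pathway, 14 were lower, 5 higher and 17 not called, with a median of -0.31. Of 33 genes of the TGFB early response, 20 were lower and 4 higher, with a median of -1.19 and a median TGFB1 difference of 1.67 alone and 0.12 in celastrol. By their celastrol differences 12 were raised by TGFB1 and mimicked, 8 raised and left, and 0 raised and opposed. This split was close to that of all raised genes, of which 53.6% were mimicked, 39.4% left and 6.98% opposed. Of 45 collagen and matrix genes 29 were lower and 0 higher (19 and 1 with a common total), with 8 raised and left, 1 raised and mimicked and 2 raised and opposed; of 24 proteases and inhibitors 11 were lower and 1 higher (10 and 4 with a common total), with 6 raised and left and 1 raised and mimicked. Contractile and focal adhesion genes had 15 of 30 lower and 0 higher, with a common total 7 and 0. COL1A1, the main chain of type I collagen, had -0.86 (SE 0.22, adjusted p = 0.0371), a call lost with a common total (adjusted p = 0.0824) and without any 1 library other than TGFB1 replicate 1 and celastrol replicate 1 (0.0666 to 0.167).

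Of 37 cytokines and growth factor ligands, 20 were lower and 3 higher, and with a common total 20 and 5. Of these 37, 13 were raised and mimicked, 3 raised and left and 2 raised and opposed. Of all raised genes 53.6% were mimicked, 39.4% left and 6.98% opposed. TGFB1 alone was called upward in 22 of the 37 and downward in 6. Of 25 immediate early genes, 13 were lower and 1 higher (9 and 2 with a common total). Of these 25, 8 were raised and mimicked with none raised and left or opposed. TGFB1 alone was called upward in 14 of the 25 and downward in 4. Of 17 feedback inhibitors of MAP kinases 7 were lower and 0 higher, and of 23 targets of YAP and TAZ 9 were lower and 0 higher, with a common total 6 and 3. NF-kB and inflammatory genes had 7 of 20 lower and 3 higher. TGFB1 alone was called upward in 9 of the 17 feedback inhibitors, 13 of the 23 YAP and TAZ targets and 10 of the 20 inflammatory genes. Downward calls numbered 0, 2 and 3. Of 20 chaperones of the endoplasmic reticulum 8 were lower and 0 higher, while TGFB1 alone was called upward in 15 and downward in 0. Among the lower were HSPA5, the chaperone BiP, at -0.70 (SE 0.09, adjusted p = 0.00182), and DNAJB9 at -1.62 (SE 0.14, adjusted p = 0.000279).

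**Figure D5:**
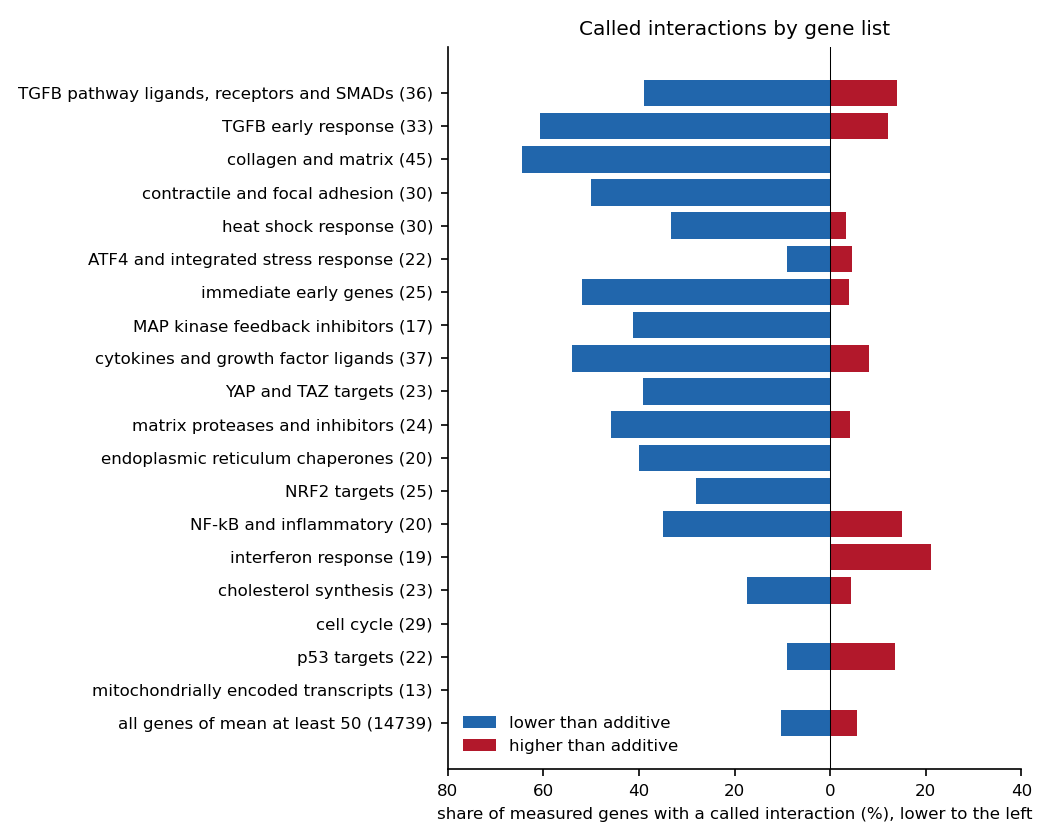
Share of the measured genes of each list (number in brackets) with a called interaction, lower than additive to the left in blue and higher to the right in red, in percent; the bottom row gives all genes. With the deposited scaling, collagen and matrix genes have the highest share of lower calls, 29 of 45 (19 with a common total, a smaller share than the 20 of 33 of the TGFB early response), interferon response genes have higher calls only, and cell cycle and mitochondrially encoded genes have none. TGFB1 alone was called upward in 30 of these matrix, 25 of the early response and 1 of the interferon response genes. Downward calls numbered 0, 5 and 5.

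With the deposited scaling the interferon response was the only list with higher calls and no lower ones, 4 of 19 (6 with a common total, 3 with median centring). TGFB1 alone was called downward in 5 of these 19 and upward in 1. With a common total heat shock and cell cycle genes also had higher calls only, 2 and 5. IFIT2, an antiviral RNA-binding protein, was at 261 and 351 in control, 63.6 and 46.7 with TGFB1, 316 and 334 in celastrol and 366 and 401 in combined libraries. Its TGFB1 libraries were lowest, and its control, celastrol and combined libraries lay together. Interactions were 2.09 (SE 0.25, adjusted p = 0.00133) for IFIT1, 2.69 (SE 0.27, adjusted p = 0.000521) for IFIT2 and 1.29 (SE 0.13, adjusted p = 0.000717) for IFIT3. IFIT2 shares exon bases with LIPA.

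Heat shock genes rose strongly with celastrol whether or not TGFB1 was present: 27 of 30 were called higher with celastrol alone and 29 of 30 with TGFB1, beside 25.3% and 27.4% of all genes. HSPA1A, an inducible HSP70 chaperone whose reads may be shared with its near copy HSPA1B, was at 2149.9 and 2210.2 in control, 1823 and 2086 with TGFB1, 158330 and 202960 in celastrol and 182190 and 180840 in combined libraries. DNAJB1, its co-chaperone, was at 1738 and 1723 in control, 1490.1 and 1595 with TGFB1, 54014 and 66458 in celastrol and 56382 and 54293 in combined libraries. HSPA1A rose with celastrol by 6.36 without and 6.54 with TGFB1, and DNAJB1 by 5.11 and 5.16; the interactions of 0.18 (SE 0.16, adjusted p = 0.535) and 0.05 (SE 0.13, adjusted p = 0.85) did not pass. HSPA6, a chaperone with a near copy, HSPA7, was listed at 0 and 14.9 with TGFB1 and at 67563 to 85624 in the celastrol-treated libraries; its interaction of 3.22 (SE 1.39, adjusted p = 0.187) passed without TGFB1 replicate 1 (1.23, adjusted p = 0.0121) or replicate 2 (5.22, adjusted p = 6.92e-05). Of 30 heat shock genes 10 were called lower and 1 higher, but with a common total 0 and 2, so the direction of this list depends on the scaling. HSPD1, a mitochondrial chaperone that shares exon bases with HSPE1, had -0.48 (SE 0.11, adjusted p = 0.028), named after its values were seen; with a common total the call was lost (adjusted p = 0.179), as it was without any 1 library other than control replicate 1 and TGFB1 replicate 2 (0.0515 to 0.126). All 13 mitochondrially encoded transcripts fell with celastrol alone, which 28.3% of all genes did, and 0 had a called interaction; MT-CO1, a subunit of cytochrome c oxidase, was at 93757 and 93041 in control, 110930 and 103030 with TGFB1, 20262 and 21517 in celastrol and 23176 and 22432 in combined libraries. Its interaction was -0.07 (SE 0.09, adjusted p = 0.713).

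Of 22 targets of ATF4 and the integrated stress response 2 were lower and 1 higher; SLC7A5, an amino acid transporter, had -1.19 (SE 0.12, adjusted p = 0.000477), and ATF3, a stress-induced repressor, missed the threshold with -0.71 (SE 0.20, adjusted p = 0.0539), but passed without TGFB1 replicate 1 (adjusted p = 0.00305) or replicate 2 (0.0464). Of 25 NRF2 targets 7 were lower and 0 higher (5 and 0 with a common total). GCLM, a subunit of the enzyme for glutathione synthesis, had -0.83 (SE 0.10, adjusted p = 0.00128). HMOX1, heme oxygenase, had -0.89 (SE 0.18, adjusted p = 0.0175), which did not pass without control replicate 1, either celastrol or either combined library (adjusted p = 0.0626 to 0.104). Cholesterol synthesis had 4 of 23 lower and 1 higher (1 and 3 with a common total), p53 targets 2 of 22 lower and 3 higher (2 and 5 with a common total but 5 and 2 with median centring), and the 29 cell cycle genes 0 in both directions (5 higher with a common total).

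Some genes often used to follow TGFB1 or MAP kinase signalling had no called interaction. ACTA2, smooth muscle actin, was at 2944 and 1423 in control, 3368 and 2198 with TGFB1, 2428 and 1625 in celastrol and 2259 and 1200.1 in combined libraries. Replicate 1 was above replicate 2 in every group, and its interaction was -0.68 (SE 0.57, adjusted p = 0.507). COL1A2, the second chain of type I collagen, had -0.32 (SE 0.18, adjusted p = 0.323), ANKRD1, a target of YAP, -0.88 (SE 0.36, adjusted p = 0.167), and DUSP6, a phosphatase of ERK, -0.17 (SE 0.15, adjusted p = 0.549). TGFB1 alone was not called for ACTA2, COL1A2 or DUSP6, at 0.41 (SE 0.40), 0.15 (SE 0.13) and 0.03 (SE 0.11). ANKRD1 passed without control replicate 1 (-1.36, adjusted p = 0.00328).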

How the data were processed

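RNA of 8 libraries in 4 groups of 2 was analysed from 1 deposited table. Each deposited signal value is, from the values themselves, an estimated read number divided by 1 size factor per library, called a normalized read number here. The median ratio to the geometric mean was 1.01 in every library. Of the low values above 0, the only ones checked for this, 74.5% to 75.8% were whole reads within 0.02 reads. That signal was made by the authors with Partek 10.0.22, STAR 2.7.3a and DESeq2 on build hg38, per the submitters' processing notes. Their roles, the annotation and any use of strand were not given in the sources used here. Since the other low values were fractional, no count model was fitted. A read number of 0 allows up to 3 reads, or 1.8 to 4.24 normalized reads, for counting error only.

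Groups and replicate numbers came from sample titles; another label numbers celastrol replicate 2 as 3. Values were tested as log2(value + 1), which draws changes of low genes toward 0, with limma 3.58.1 in R 4.3.3: 1 mean per group, variance trended on mean level, two-sided tests and 4 residual degrees of freedom. The 22866 genes that reached 10 normalized reads in 2 or more libraries were tested. The fit was tested on simulated data. Benjamini-Hochberg adjustment ran over all tested genes within each comparison. Genes were named if they had the 12 largest interactions of either direction, the 4 largest TGFB1 changes of a class or the 4 smallest p-values of a list, or were marker genes of the pathway; clone, antisense, non-coding and pseudogene names were left out, and further genes are said to be named after their values were seen. Not every gene the rule allows is named. The members and lists were chosen with earlier results of these data known. Promoter sequences are from RefSeq (GRCh38.p14), and coordinates are those deposited, with the end counted as the last base. Alternatives were a pseudocount of 10, no filter, only the described genes in the fit, a common total, median centring, no variance trend, a replicate block, other class limits, and leaving out each library.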

Additional observations from a re-analysis of the deposited data

Results flagged for a closer look

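The TGFB1 effect differed with and without celastrol, by the interaction test of the limma fit at an adjusted p under 0.05, for 1503 genes downward and 842 upward. Each gene the text names with such a call is listed here with its log2 interaction.

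Among genes raised by TGFB1 and also by celastrol these were EGR2 (-7.54), JUNB (-3.02), IER3 (-2.06), FOSB (-2.23), EGR3 (-2.0), KLF10 (-1.75), BHLHE40 (-2.52), SNAI1 (-1.63), SMAD7 (-1.07), SKIL (-1.11), GADD45B (-1.81), ANGPTL4 (-5.51), INHBA (-2.27), LIF (-5.07), IL11 (-4.02), HBEGF (-4.06), PMEPA1 (-3.63), PTGS2 (-2.54), IL6 (-2.26), COMP (-5.61), SLC7A5 (-1.19), DNAJB9 (-1.62), SPRY4 (-1.67), ERRFI1 (-1.62) and NEDD9 (-1.60). Among raised genes that celastrol left they were CCN2 (-2.60), SEMA7A (-3.27), XYLT1 (-2.60), COL7A1 (-1.68), FN1 (-1.36), COL4A1 (-1.99) and NOX4 (-2.37), and among those it opposed ESM1 (-3.13), ELN (-3.51), IFNE (-2.87), PODXL (-2.39), TPM1 (-1.18) and CCL2 (-1.44). Among lowered genes they were KIT (4.10), ARHGAP28 (3.19), TGFBR3 (2.02) and STC2 (1.38) where celastrol opposed the change, ADAMTS1 (3.15), SMAD6 (2.61), PTX3 (2.84), KCNN2 (3.07), IFIT1 (2.09), IFIT2 (2.69) and IFIT3 (1.29) where it left the gene, and ATOH8 (2.34), HOXA13 (2.29) and ID1 (1.18) where it moved the gene the same way. Genes that TGFB1 changed by less than 1 on the log2 scale were COL1A1 (-0.86), HMOX1 (-0.89), GCLM (-0.83), HSPA5 (-0.70) and HSPD1 (-0.48).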

How the results depend on the processing

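The counts of called interactions, 1503 lower and 842 higher, moved beyond 1.5 times with a common total (739 and 2185) and without a variance trend (592 and 393). Other settings stayed within it: 1567 and 872 with a pseudocount of 10, 1463 and 822 with no filter, 1831 and 1042 with only the described genes fitted, 2217 and 680 with median centring, and 2151 and 1216 with the replicate block. Leaving out 1 library gave 803 to 1490 lower and 361 to 883 higher genes; of size at least 1, a limit added after seeing the data, there were 300 to 407 and 186 to 418. With a common total 645 higher genes had that size. Counts fell furthest without combined replicate 2 (803 and 361), then without celastrol replicate 2 (852 and 414), control replicate 2 (888 and 472), combined replicate 1 (926 and 399), celastrol replicate 1 (980 and 524) and control replicate 1 (1028 and 482); such fits have fewer libraries, and other causes were not tested.

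Of the classes, 138 lowered genes were opposed with a pseudocount of 10, beside 217. With a common total 100 raised genes were left, 106 lowered genes mimicked and 346 lowered genes left, and 399 of 760 lowered genes kept a negative TGFB1 difference in celastrol, beside 258 of 463. With a TGFB1 size of at least 2 the raised classes held 80, 31 and 6 genes and the lowered ones 3, 31 and 40 (mimicked, left, opposed); with no size limit on celastrol 64 raised genes were opposed. Without 1 library, raised genes numbered 228 to 285 mimicked, 176 to 210 left and 27 to 37 opposed, lowered genes 31 to 52, 195 to 222 and 169 to 266, and genes keeping their sign 299 to 366 raised and 218 to 303 lowered.

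The single raised gene still called with TGFB1 in celastrol, FOSB, gave 0 with no filter, with median centring, without a variance trend and without each library (0 to 0); lowered genes gave 0 to 0. Of the 57 named genes with a called interaction, 49 kept their call and 57 their sign under all 15 alternatives. The 8 that lost it, ATOH8, COL1A1, HMOX1, HSPD1, ID1, NOX4, SMAD7 and SNAI1, all did so without a variance trend (adjusted p = 0.05045 to 0.1331). Signs turned only in uncalled genes: DUSP6 (0.071) and MT-CO1 (0.17) at a common total, DNAJB1 (-0.028) with median centring, and, over left-out libraries, DUSP6 (-0.34 to 0.0041), DNAJB1 (-0.098 to 0.20) and HSPA1A (-0.000419 to 0.36).

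It is not known that replicate numbers mark pairs. Deviations of same-numbered libraries correlated at 0.17 to 0.23 over genes in all 6 pairs of groups, but with 2 numbers per group and an unclear label for 1 library this does not show pairing. With the replicate block the calls numbered 2151 lower and 1216 higher, and the calls of ACTA2 (-0.68, adjusted p = 0.0156), COL1A2 (-0.32, 0.0427) and ATF3 (-0.71, 0.0262) passed. With 2 libraries a group, uncalled genes may still differ: a TGFB1 difference in celastrol near its median standard error of 0.11 cannot be told from 0. Larger differences in celastrol also went uncalled, such as 0.62 (SE 0.08) in JUNB and 0.61 (SE 0.10) in PMEPA1.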
